A study of Mus musculus with 18 samples.

Results

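The genes described here are 36 mouse genes of the interferon response and of class I antigen presentation, followed through cells sorted from the mammary glands of mice under estrogen receptor blockade. They were taken from a named list, and all 36 were matched to the 52636 genes of the deposited count tables, had counts and passed the filter on low counts that left 18298 genes for testing. Of the 36, 32 had at least 10 counts in all 18 libraries, and Mx1, Mx2, Oas2 and Ifit3 fell below 10 counts in some. The mice carried the Esr1 mutation D542G, the Esr1 mutation Y541S or wild-type Esr1 (WT). Esr1 encodes estrogen receptor alpha, through which mature luminal cells sense estrogen, and both mutations lie in its ligand-binding domain. At 6 months of age every animal received pellets of the hormones E2 (estradiol) and P4 (progesterone) and then giredestrant, an oral estrogen receptor antagonist and degrader, at 30 mg/kg a day for 4 days. Cells were sorted by flow cytometry into 2 gates, a second population called N and the mature luminal population ML, which gives 6 groups of 3 libraries: D542G N, Y541S N, WT N, D542G ML, Y541S ML and WT ML. All groups share the hormones and the drug, so no value here separates an effect of giredestrant, and how the Esr1 mutations were introduced is not given in the sources used here.

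Interferons are secreted proteins that warn cells of infection. Type I and type III interferons signal through JAK kinases to a complex with Stat2 and Irf9 that binds paired GAAA letters before the start of interferon-stimulated genes, and genes that answer interferon gamma often hold the motif TTCNNNGAA. The genes switched on include sensors of viral RNA, enzymes and GTPases that restrict viruses, the ubiquitin-like protein Isg15, and the class I machinery. In that machinery the immunoproteasome cuts proteins into peptides, the Tap transporter carries them into the endoplasmic reticulum, and class I heavy chains display them to cytotoxic T cells. Epithelial cells keep a basal level of many of these genes without infection.

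Libraries held 34797778 to 49507144 counts. The basal and myoepithelial markers (Krt5, Krt14, Acta2 and 8 others, 11 in all) summed to 6223 to 39828 CPM (counts scaled to a common library total) in N libraries and 156 to 9556 CPM in ML libraries, and all 11 were higher in N. The 10 luminal markers (Krt8, Epcam and others) summed to 2419 to 17564 CPM in N and 16466 to 31343 CPM in ML, and 9 were lower in N, which goes against the submitters' description of all samples as mature luminal cells. Of the mature luminal hormone-sensing markers 5 of 10 were lower in N, and of the luminal progenitor markers 6 of 7. WT N 3 stood apart from WT N 1 and WT N 2, with a luminal sum of 17564 CPM against 2419 and 3364 CPM and a basal sum of 6223 CPM against 31262 and 39828 CPM. WT ML 1 and WT ML 2 had basal sums of 9556 and 6553 CPM, against 320.0 CPM in WT ML 3. Y541S N 2 had a luminal progenitor sum of 19432 CPM, against 137.6 to 1329 CPM in the other N libraries and 3755 to 24223 CPM in ML. The milk protein gene Csn2 alone reached 17504 CPM in N. The endothelial sum of Y541S N 2 was 763.3 CPM, against at most 300.7 CPM in the other N libraries. The part of this marker composition in the results below was not tested, and in bulk libraries fewer cells of a type and less RNA per cell cannot be told apart. Leukocyte marker sums were 15.9 to 250.5 CPM in N and 5.46 to 90.8 CPM in ML with 1 of 8 markers higher in N, and Ptprc, the pan-leukocyte marker, reached at most 3.65 CPM in N and 3.79 CPM in ML. Arhgdib alone, with 89.6% of its exon bases in the span of Pde6h, reached 240.0 CPM in N, and no other leukocyte marker passed 9.98 CPM there. Cd3d, Cd3e and Cd8a stayed below 1 CPM in every library. T and natural killer sums were 7.10 to 40.8 CPM in N and 3.02 to 9.85 CPM in ML (1 of 8 markers higher), of which Trbc2 made up 5.03 to 40.2 CPM in N while no other marker of that list passed 1.48 CPM there. Macrophage and dendritic sums were 11.7 to 273 and 12.8 to 62.4 CPM (1 of 11 higher and 1 lower). B and plasma sums were 0.201 to 99.8 CPM in N and 0.713 to 2927 CPM in ML (3 of 6 lower), endothelial sums 133.7 to 763.3 and 110.0 to 273.7 CPM (6 of 9 higher and 1 lower), and fibroblast sums 118.1 to 500.8 and 45.6 to 442 CPM (2 of 8 higher).

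B2m, the light chain of class I, Psmb10, Tapbpl, Cxcl10, Cxcl11, Irf8, Myd88 and Tgtp1, whose exons lie wholly within the span of another gene, and Igtp, with 96.9% of its exon bases so placed, were listed at 0 in all libraries and cannot be read here. The same holds for H2-T23, H2-T24, Gbp9, Gbp10, Ifi47, Tgtp2, Ifnk, Ifnl2 and Ifnl3, and for Gbp4 with 99.4% of its exon bases so placed. Among the 36 genes, the exon bases that overlap the span of another gene made up 81.8% in Usp18, 57.4% in Tap2, 55.5% in Psmb8, 35.3% in Dhx58 and 33.1% in Tapbp, so their counts may come from part of each gene. H2-K1 and H2-D1 resemble each other and other class I genes closely in sequence, and reads could be split between them, which makes the values of each uncertain; the same holds for Ifit, Oas, Mx and Gbp relatives.

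The question that the gates put is how N cells differ from ML cells of the same genotype. Over the 3 genotypes with equal weight, 20 of the 36 genes were lower in N, where 13.6% of all genes tested were lower, and 2 were higher, where 13.8% were higher (edgeR quasi-likelihood test, adjusted p under 0.05, which is what "called" means below). The median log2 fold change of the 36 was -0.73 and that of all genes -0.03, and 32 of 36 fitted fold changes were below 0. Genes of class I presentation, RNA sensing and the Oas family were among the lower ones, and both higher ones, Irf1 and Nlrc5, are activators of class I genes. The directions were also seen within genotypes: 24 of 36 had a fitted fold change below 0 in each genotype (26.8% of all genes) and 3 above 0 in each (24.9%). Of the 22 calls, 18 held whichever 1 of the 18 libraries was omitted, and all 22 were also called by DESeq2, by limma-voom with quality weights and with same-numbered N and ML libraries treated as pairs. For 11 of the 22, all 9 N libraries lay below the median of the 9 ML libraries. The share of all genes so placed is not given here, and the 22 were called on the same values, so this count adds no further support. None of the 36 had all N libraries below all ML libraries (1.28% of all genes) or above them (1.48%). In the paired fit Gbp2 (adjusted p = 0.031) and Rsad2 (adjusted p = 0.0202) were lower as well.

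**Figure D1:**
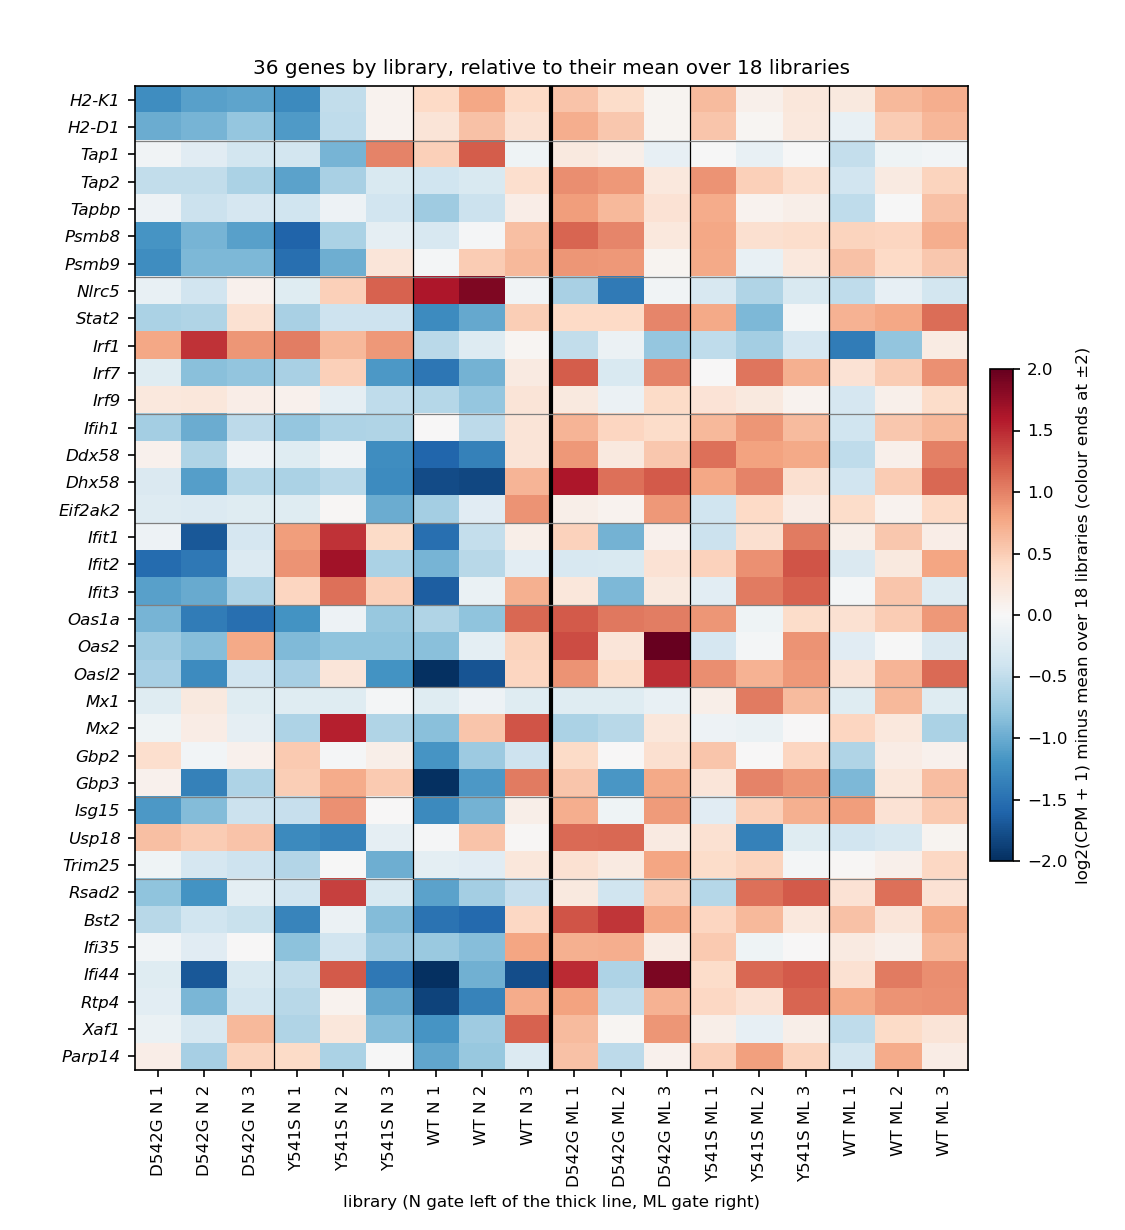
Level of each of the 36 genes (rows, grouped by role) in each library (columns), as log2(CPM + 1) minus the mean over the 18 libraries, with N libraries left and ML libraries right of the thick line. N columns are mostly blue and ML columns mostly red; WT N 3 had 28 of 36 genes above their 18-library median, against 4 in WT N 1 and 9 in WT N 2.

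**Figure D2:**
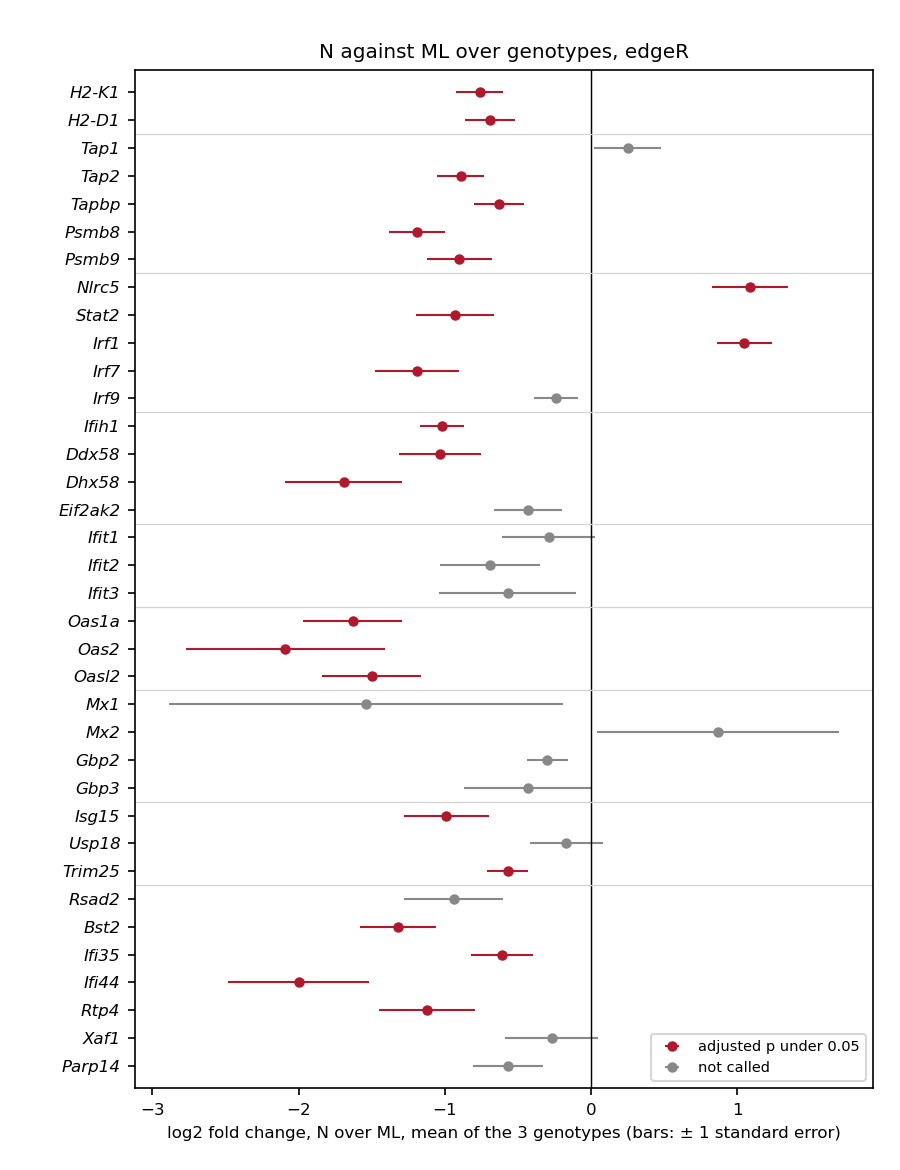
Fitted log2 fold change of each gene, N over ML, as the mean of 3 genotypes, with bars of 1 standard error; red points were called. Irf1 and Nlrc5 stand right of 0 at 1.05 and 1.09, and the 20 genes called lower run from -2.09 for Oas2 to -0.57 for Trim25.

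Promoters were read for the motif that the complex with Stat2 and Irf9 binds. RefSeq (build GRCm38.p6) windows of 250 bases before the start were held for 27 of the 36 genes, and 9 of these (33.3%) contained the letters GAAA, any bases NN and GAAA again, or the other-strand form of TTTC, NN and TTTC, against 2.98% of all 32851 windows and 3.46% of 27025 genes. The 9 are Bst2, Oas1a, Isg15, Stat2, Rsad2, Gbp2, Ifit1, Ifit3 and Gbp3. Matches may overlap one another and were counted at each position. The gamma motif TTCNNNGAA, which reads the same on both strands, was in 6 of 27 genes (22.2%), against 7.02% of all windows and 8.13% of 27025 genes. The 6 are Bst2, Eif2ak2, Ifit2, Irf1, Oas1a and Psmb8, and in Bst2 it overlapped the paired GAAA motif. A match describes letters only. The windows of Mx1, Mx2, Oas2, Dhx58, Parp14, Rtp4, Tap2, Usp18 and Nlrc5 were not used here.

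The motif of 6 genes is shown because they had the smallest p between the gates among the genes that carry the paired GAAA letters; Irf1, chosen after its values were seen, is added because it was higher in N and holds the gamma motif. Each sequence runs 5′ to 3′ on the gene's strand, and capitals mark the matched letters.
Bst2, chr8:71537557-71537632, minus strand: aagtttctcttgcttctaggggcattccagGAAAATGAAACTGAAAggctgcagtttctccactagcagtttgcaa
Oas1a, chr5:120907526-120907575, minus strand: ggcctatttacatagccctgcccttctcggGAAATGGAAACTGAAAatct
Isg15, chr4:156200845-156200926, minus strand: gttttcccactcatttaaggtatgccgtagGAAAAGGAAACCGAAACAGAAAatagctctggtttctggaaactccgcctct
Stat2, chr10:128270248-128270315, plus strand: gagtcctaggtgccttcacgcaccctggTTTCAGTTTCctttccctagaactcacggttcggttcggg
Rsad2, chr12:26456533-26456602, minus strand: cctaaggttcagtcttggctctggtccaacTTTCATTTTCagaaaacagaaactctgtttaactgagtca
Gbp2, chr3:142620594-142620623, plus strand: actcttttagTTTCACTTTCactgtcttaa
Irf1, chr11:53769894-53769962, plus strand: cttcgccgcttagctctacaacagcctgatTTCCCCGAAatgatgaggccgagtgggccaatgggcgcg

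In Isg15 3 matches ran into each other from 78 to 57 bases before the start, and in Bst2 and Oas1a 2 matches overlapped, from 130 to 115 and from 20 to 5 bases before it. Stat2 held its match 222 bases before the start and Gbp2 at 59 bases, where GENCODE M21 already places the gene. Of all 9 genes with the paired GAAA motif, Bst2, Oas1a, Isg15 and Stat2 were called lower in N. Rsad2, Gbp2, Ifit1, Ifit3 and Gbp3 were not. Over the whole list 20 of 36 were lower, and 13.6% of all genes tested. The 6 printed above were picked by their p, so their calls do not bear on the motif.

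**Figure D3:**
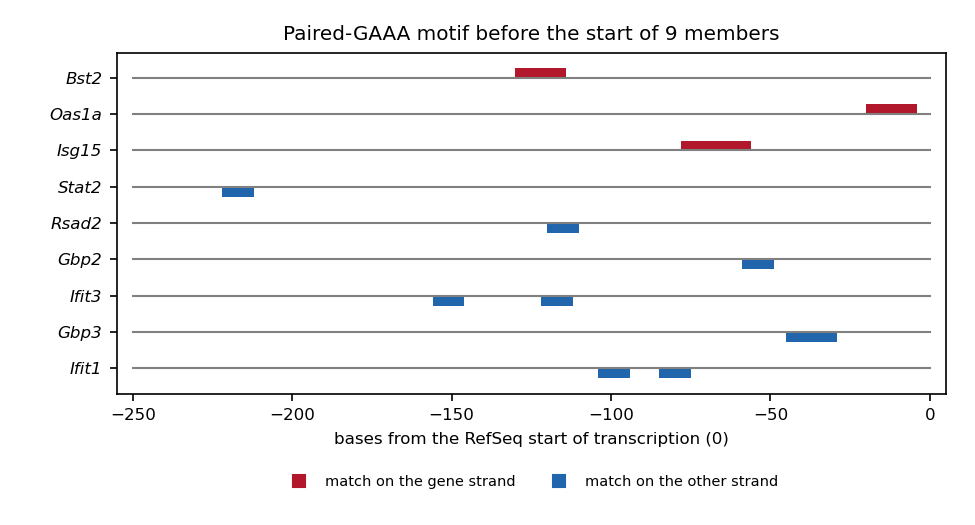
Position of each paired GAAA match (bars) in the 250 bases before the RefSeq start of the 9 genes that hold it, red on the gene's strand and blue on the other. Matches lie between 222 bases (Stat2) and 5 bases (Oas1a) before the start.

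Class I heavy chains were lower in N, with the low values in the mutants. H2-K1 (chr17:33996017-34000347, minus strand, GRCm38), a classical heavy chain, had 511, 569 and 583 CPM in D542G N, 497, 857 and 1259 CPM in Y541S N and 1590.1, 2052 and 1584 CPM in WT N, against 1794, 1552 and 1250.0 CPM in D542G ML, 1862, 1297 and 1408 CPM in Y541S ML and 1379.9, 1886 and 2006 CPM in WT ML. The D542G N libraries lay below all 9 ML libraries, while WT N 2 lay above them all and WT N 1 and WT N 3 among them. Over genotypes its log2 fold change was -0.76 ± 0.16 (SE; adjusted p = 0.00373, edgeR). H2-D1 (chr17:35262730-35267499), the other classical heavy chain measured, had values of 1074 to 1259 CPM in D542G N, 975 to 2248 CPM in Y541S N and 2555 to 3207 CPM in WT N, against 2218 to 3547 CPM in D542G ML, 2205 to 3139 CPM in Y541S ML and 1927 to 3406 CPM in WT ML. Again the D542G N libraries lay below all ML libraries. It too was lower over genotypes, by a log2 fold change of -0.69 ± 0.17 (SE; adjusted p = 0.00807).

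Of the 5 genes that make and load peptides, 4 were lower in N, and they lie near each other in the H2 complex on chromosome 17. Psmb8 (chr17:34197721-34201454), a catalytic subunit of the immunoproteasome, had a lowest, median and highest value of 16.6, 33.5 and 79.9 CPM in N, against 61.1, 72.1 and 119 CPM in ML. The highest N value was that of WT N 3, and the other 8 N libraries lay below every ML library. Its log2 fold change was -1.19 ± 0.19 (SE; adjusted p = 0.000547). Psmb9, the second immunoproteasome subunit of the list, had 24.4, 37.8 and 112.1 CPM in N against 64.0, 104.4 and 132.2 CPM in ML (log2 fold change -0.90 ± 0.22, adjusted p = 0.00824). Tap2, one chain of the peptide transporter, had 88.5, 133.2 and 237.7 CPM in N against 143.7, 256.5 and 356.7 CPM in ML, with all 9 N libraries below the ML median (-0.89 ± 0.16, adjusted p = 0.00113). Tapbp, or tapasin, which bridges Tap and the heavy chains, had 421, 531 and 760.3 CPM in N against 489, 847 and 1233 CPM in ML (-0.63 ± 0.17, adjusted p = 0.0119). Tap1, the partner chain of Tap2, was not called: it had 62.9, 113.2 and 279.1 CPM in N against 85.6, 116.2 and 137.9 CPM in ML, so that N spanned a wider range around the same middle (0.25 ± 0.23, adjusted p = 0.455).

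Transcription factors divided. Irf1 (chr11:53770014-53778374), an activator of class I and immunoproteasome genes that interferon gamma induces, had 648, 1035 and 697 CPM in D542G N, 771, 595 and 690 CPM in Y541S N and 259, 317 and 388 CPM in WT N, against 269, 349 and 222 CPM in D542G ML, 265, 237 and 298 CPM in Y541S ML and 143.4, 218 and 423 CPM in WT ML. The 6 mutant N libraries lay above all 12 others, and WT N and WT ML overlapped. Its log2 fold change over genotypes was 1.05 ± 0.19 (SE; adjusted p = 0.00105). Nlrc5 (chr8:94434356-94527272), the class I transactivator, had 20.4, 17.2 and 24.3 CPM in D542G N, 19.2, 32.3 and 53.0 CPM in Y541S N and 72.2, 85.8 and 21.6 CPM in WT N, against 7.97 to 21.7 CPM over the 9 ML libraries. The high values were those of WT N 1, WT N 2 and Y541S N 3, and the fold change was 1.09 ± 0.26 (adjusted p = 0.00794). Irf7, the amplifier of type I interferon production, was lower, with 10.8, 17.6 and 43.7 CPM in N against 25.1, 51.5 and 73.6 CPM in ML (-1.19 ± 0.29, adjusted p = 0.0089). Stat2, the subunit particular to type I and III signalling, had 9.76, 16.0 and 35.3 CPM in N against 12.9, 40.9 and 55.1 CPM in ML (-0.93 ± 0.27, adjusted p = 0.0222), a call lost without Y541S ML 1 or WT N 2 (adjusted p up to 0.0554). Irf9, the DNA-binding subunit of the same complex, had 54.3, 98.9 and 111.5 CPM in N against 74.2, 106.6 and 122.5 CPM in ML and was not called (-0.24 ± 0.15, adjusted p = 0.252).

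Cytoplasmic RNA sensors were lower in N for 3 of 4. Ifih1, which encodes the long double-stranded RNA sensor Mda5, had 22.6, 18.1 and 25.4 CPM in D542G N, 21.3, 23.8 and 24 CPM in Y541S N and 37.3, 25.3 and 44.1 CPM in WT N, against 47.9 to 59.5 CPM in D542G ML, 57.7 to 68.8 CPM in Y541S ML and 27.9, 54.1 and 58.1 CPM in WT ML. Replicates were tight in both mutants and in both gates, WT ML 1 was the lowest ML library, and the fold change had the smallest p of the 36 (-1.02 ± 0.15, adjusted p = 0.000233). Ddx58, the sensor Rig-I, had 16.3, 42.8 and 61.1 CPM in N against 35.3, 86 and 109.5 CPM in ML (-1.03 ± 0.28, adjusted p = 0.0139). Dhx58, the regulator Lgp2 of both sensors, had 1.27, 4.16 and 11.9 CPM in N against 5.17, 14.8 and 23.6 CPM in ML (-1.69 ± 0.40, adjusted p = 0.00786). The low ends of Ddx58 and Dhx58 in N were WT N 1 and WT N 2, while WT N 3 held their highest N values. Eif2ak2, the RNA-activated kinase Pkr that halts translation, had 7.02, 12.5 and 28.9 CPM in N against 11.2, 16.7 and 28.1 CPM in ML and was not called (-0.43 ± 0.23, adjusted p = 0.189).

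The Oas family, enzymes and relatives that answer double-stranded RNA by making oligoadenylates, was lower in N for all 3 genes listed. Oas1a had 0.844 to 1.73 CPM in D542G N, 1.29 to 3.90 CPM in Y541S N and 1.99 to 10.5 CPM in WT N, against 9.63 to 11.2, 3.95 to 8.60 and 5.48 to 8.56 CPM in the ML libraries of the same genotypes (-1.63 ± 0.34, adjusted p = 0.00338). WT N 3 gave the 10.5 CPM and was the only N library above the ML median. Oasl2 had 5.93, 17.5 and 38.7 CPM in N against 35.1, 52.6 and 81.3 CPM in ML, with all 9 N libraries below the ML median (-1.5 ± 0.34, adjusted p = 0.00522). Oas2 was scarce, at 0.046, 0.101 and 2.25 CPM in N against 0.523, 0.913 and 8.62 CPM in ML (-2.09 ± 0.68, adjusted p = 0.038), and its call was lost in 13 of the 18 fits with 1 library left out (adjusted p up to 0.0802).

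The Ifit genes, whose products bind foreign RNA ends, gave no call in this comparison, and their spread within groups was wide. Ifit1 had 4.12, 14.5 and 44.2 CPM in N against 7.65, 17.3 and 33.3 CPM in ML (-0.29 ± 0.32, adjusted p = 0.548). Ifit2 had 1.55, 4.06 and 22.9 CPM in N against 4.98, 8.12 and 16.7 CPM in ML (-0.69 ± 0.34, adjusted p = 0.149). For Ifit3 the values were 0.176, 2.38 and 6.96 CPM in N against 0.989, 3.22 and 7.38 CPM in ML (-0.57 ± 0.47, adjusted p = 0.402). All 3 were highest among N libraries in Y541S N 2, which also had the highest luminal progenitor and endothelial marker sums of the N libraries.

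None of the 4 interferon-induced GTPases was called. Gbp2, a guanylate-binding protein that attacks pathogen vacuoles, had 24.7, 55.8 and 82.7 CPM in N against 37.1, 63.2 and 84.4 CPM in ML (-0.30 ± 0.14, adjusted p = 0.134), and its 3 lowest N values were those of WT N. Gbp3, of the same family, had 1.86, 11.0 and 22.2 CPM in N against 4.08, 15.6 and 21.4 CPM in ML (-0.43 ± 0.44, adjusted p = 0.508). Mx1 and Mx2, of a family of dynamin-like restrictors of viruses, were near the limit of detection, and the annotation lists Mx2 as a polymorphic pseudogene. Mx1 held 0 to 18 counts a library in N and 0 to 57 counts in ML, and was at 0 in 6 of 9 N libraries (-1.54 ± 1.35, adjusted p = 0.433). Mx2 held 0 to 168 counts in N and 6 to 59 counts in ML (0.87 ± 0.83, adjusted p = 0.472). The direction of both reversed in at least 1 alternative.

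In the Isg15 system, 2 of 3 genes were lower. Isg15, the ubiquitin-like modifier, had 2.46, 5.06 and 14.7 CPM in N against 6.18, 11.0 and 14.0 CPM in ML (-0.99 ± 0.29, adjusted p = 0.0204); Y541S N 2 was the only N library above the ML median. Trim25, the ubiquitin ligase that activates Rig-I, had 31.3, 53.3 and 73.6 CPM in N against 61.0, 77.6 and 108.7 CPM in ML (-0.57 ± 0.14, adjusted p = 0.00934). Usp18, which removes Isg15 and damps the interferon receptor, had 5.20, 15 and 22.9 CPM in N against 5.20, 15.4 and 33.7 CPM in ML (-0.17 ± 0.25, adjusted p = 0.672).

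Among the 7 other effectors 4 were lower. Bst2, or tetherin, which holds budding virions at the cell surface, had 26.3, 29.7 and 28.7 CPM in D542G N, 15.1, 36.1 and 21.2 CPM in Y541S N and 13.4, 12.7 and 52.5 CPM in WT N, against 94.8, 107 and 67.8 CPM in D542G ML, 53.1, 62.1 and 45.6 CPM in Y541S ML and 59.2, 46.4 and 67.3 CPM in WT ML. All N libraries other than WT N 3 lay below every ML library (-1.32 ± 0.26, adjusted p = 0.00219). Ifi44, an interferon-induced protein, had 0.578, 2.46 and 14.9 CPM in N against 3.42, 12.8 and 24 CPM in ML (-2.0 ± 0.48, adjusted p = 0.00833). Rtp4, a receptor transporter induced by interferon, had 6.46, 17.3 and 44.3 CPM in N against 18.2, 44.6 and 59.5 CPM in ML (-1.12 ± 0.33, adjusted p = 0.0232); the call was lost without Y541S N 1, Y541S N 3 or WT N 2 (adjusted p up to 0.0546). Ifi35 had 53.3, 74.3 and 168.8 CPM in N against 91.6, 110.3 and 160.5 CPM in ML (-0.61 ± 0.21, adjusted p = 0.0398), a call lost in 11 of the 18 fits (adjusted p up to 0.0892).

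The other 3 effectors were not called. Rsad2, or viperin, which makes a nucleotide that stops viral polymerases, had 2.83, 5.33 and 21.5 CPM in N against 4.89, 9.71 and 19.5 CPM in ML (-0.94 ± 0.34, adjusted p = 0.0514). Parp14, an ADP-ribosyltransferase, had 6.34, 11.4 and 19.4 CPM in N against 9.50, 19.6 and 25.7 CPM in ML, and all 9 N libraries lay below the ML median (-0.57 ± 0.24, adjusted p = 0.0869). Xaf1, a pro-apoptotic antagonist of Xiap, had 5.61, 11.1 and 32.8 CPM in N against 9.52, 15.3 and 26.7 CPM in ML (-0.27 ± 0.32, adjusted p = 0.581). Without WT N 3, 25 genes were lower over genotypes (17.3% of all genes tested then), the further ones being Irf9, Eif2ak2, Gbp3, Rsad2 and Xaf1, with adjusted p between 0.0208 and 0.047; these 5 names were chosen after their values were seen.

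Within D542G, 8 of 36 genes were lower in N (4.49% of all genes) and 1 was higher (4.71%). Of the 8, 5 belong to the class I machinery. Psmb8 had a log2 fold change of -1.94 ± 0.33 (adjusted p = 0.00344), H2-K1 of -1.47 ± 0.28 (0.00646) and H2-D1 of -1.36 ± 0.29 (0.0117). Psmb9 had a log2 fold change of -1.69 ± 0.38 (0.0154) and Tap2 one of -1.24 ± 0.28 (0.0144). Outside class I, Oas1a (-3.10 ± 0.59, 0.00787), Ifih1 (-1.25 ± 0.26, 0.00874) and Bst2 (-1.67 ± 0.45, 0.0351; named after its values were seen) were lower, and Irf1 was higher (1.5 ± 0.32, 0.012). Psmb8, H2-K1 and Ifih1 kept their calls with any 1 library left out; Oas1a lost its call without D542G N 3 (0.0527), H2-D1 without D542G ML 1 or N 1 (up to 0.0577), Irf1 without D542G ML 1 or N 2 (up to 0.0567), and Tap2, Psmb9 and Bst2 without D542G ML 1, ML 2, N 1, N 2 or N 3 (up to 0.125). In 17 genes all 3 D542G N libraries lay below all 3 D542G ML libraries (19.2% of all genes), and in 1 above (19.4%). Without D542G ML 1 or D542G N 1, 4 were lower, and 5 without D542G ML 2, D542G N 2 or D542G N 3. Shares of all genes are not given for these fits, so their counts cannot be read as a change in the list alone. Paired by number, 12 were lower (5.1% of all genes then) and 1 higher (5.58%), with Dhx58, Oasl2, Tapbp and Irf7 added.

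Within Y541S, 3 genes were lower in N (2.73% of all genes) and 1 higher (4.22%). Ifih1 was lower by a log2 fold change of -1.42 ± 0.26 (adjusted p = 0.00505), which held with any 1 library left out. Tap2 was lower (-1.24 ± 0.28, 0.017; up to 0.0957 without Y541S ML 1, N 1 or N 2). Psmb8 was lower (-1.22 ± 0.33, 0.0427), but not with pairing (0.0579) or in 14 of the 18 fits with 1 library left out (up to 0.16). Irf1 was higher (1.36 ± 0.32, 0.0226; up to 0.0911 without Y541S N 1 or any of the Y541S ML libraries). Paired by number, 5 were lower (3.74% of all genes then), namely Ddx58, Ifih1, Tap2, Trim25 and Dhx58, and 1 higher (4.95%). Without Y541S N 3, the Y541S N library with the highest H2-K1 (1259 CPM, the others at 497 and 857 CPM), 5 were lower, and Psmb9 and H2-K1 joined Ifih1, Tap2 and Psmb8. Without WT N 3 there were 8 (5.13% of all genes then), and without Y541S ML 1 or Y541S N 1 there was 1. Shares of all genes are not given for the fits without Y541S N 3, Y541S ML 1 or Y541S N 1. Their counts cannot be read as a change in the list alone. All 3 Y541S N libraries lay below all 3 Y541S ML libraries in 15 genes (15.2% of all genes) and above them in 2 (14.8%).

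Within WT, edgeR called none of the 36 in N against ML (1.39% of all genes were lower and 2.14% higher); at an unadjusted p under 0.05, 10 were lower (9.79% of all genes) and 1 higher (11.6%). DESeq2 called 1 lower and 1 higher, and limma-voom, which gave WT N 3 the lowest weight of all libraries (0.18), called 20 lower and 2 higher. Over all genes DESeq2 called 4.67% lower and 6.61% higher, and limma-voom 13.9% lower and 14.3% higher. The smallest p values belonged to Nlrc5 (1.75 ± 0.46, adjusted p = 0.0545), Ifi44 (-2.99 ± 0.83, 0.0776) and Stat2 (-1.29 ± 0.48, 0.148). Paired by number, Ifi44, Ddx58, Oasl2 and Gbp2 were lower (4 genes; 2.14% of all genes were lower and 2.78% higher). Without Y541S N 3, Nlrc5 was higher as well (1 gene, with the share of all genes not given for that fit). Without WT N 3, 12 were lower (8.14% of all genes then) and Nlrc5 was higher (2.15, adjusted p = 0.00308; 7.36%). The 12 were interferon-stimulated genes outside class I presentation: Bst2 (-2.14, adjusted p = 0.00107), Oasl2 (-2.80, 0.00206), Dhx58 (-3.06, 0.00214), Rtp4 (-2.57, 0.00285), Stat2 (-2.11, 0.00679), Ifi35 (-1.14, 0.0077), Ddx58, Isg15, Irf7, Irf9, Gbp2 and Oas1a, named after their values were seen. In the same fit none of the 7 class I genes was called: H2-K1 had a fold change of 0.05 (adjusted p = 0.938), H2-D1 of 0.05 (0.947), Psmb9 of -0.25 (0.74), Tap2 of -0.47 (0.287), Tapbp of -0.65 (0.158), Psmb8 of -0.71 (0.193) and Tap1 of 1.09 (0.0829). In all 3 WT N libraries, 7 genes lay below all WT ML libraries (9.65% of all genes) and 1 above (9.29%).

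**Figure D4:**
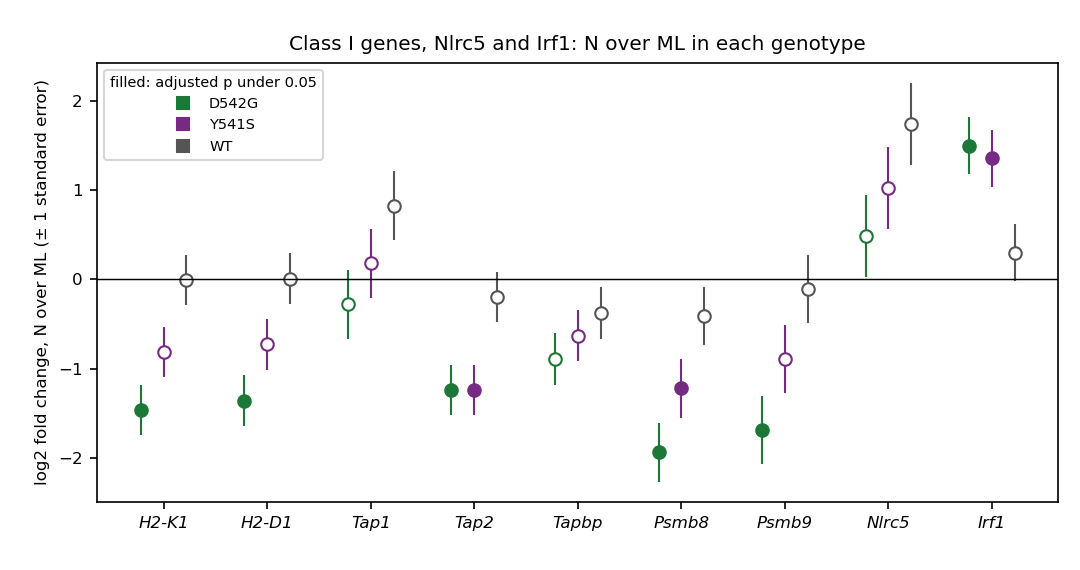
Log2 fold change of N over ML within D542G, Y541S and WT for the 7 class I genes, Nlrc5 and Irf1 (± 1 SE; filled points were called). H2-K1 lies at -1.47 in D542G and -0.01 in WT, and Irf1 at 1.5 and 0.30. In the tests of a gate difference that changes between a mutant and WT, edgeR called none of these genes.

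The N libraries also differed in which part of the list they held at a high level, given here as counts with no test. Of the 7 class I and peptide-loading genes, 1, 0 and 0 were above their 18-library median in D542G N 1 to 3, 0, 0 and 2 in Y541S N 1 to 3, and 3, 4 and 6 in WT N 1 to 3. Of the 29 others, 7, 5 and 10 were above it in D542G N, 7, 12 and 7 in Y541S N, and 1, 5 and 22 in WT N. WT N 1 was the library with the fewest of the 29 above the median, while its class I genes had a mean deviation of -0.05 from their 18-library means of log2(CPM + 1), against -1.0 for the 29 others.

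The tests of a gate difference that changes with genotype called none of the 36 by edgeR, for either mutant (0.00547% of all genes were lower and 0.104% higher for D542G, and none for Y541S). At an unadjusted p under 0.05, 7 were lower (5.27% of all genes) and 1 higher (5.4%) for D542G, and 3 lower (3.32%) and 1 higher (5.09%) for Y541S. For D542G against WT the smallest p values were those of H2-K1 (-1.45 ± 0.40, adjusted p = 0.217), H2-D1 (-1.37 ± 0.42, 0.258) and Psmb8 (-1.53 ± 0.47, 0.262). DESeq2 called H2-K1 and H2-D1 (2 lower, 0.853% of all genes), and limma-voom 4 lower (H2-K1, H2-D1, Psmb9 and Psmb8; 2.83%) and 2 higher (Irf9 and Irf1; 4.02%). For Y541S against WT they were Ifih1 (-1.03 ± 0.36, 0.508), Tap2 (-1.04 ± 0.40, 0.535) and Oas2 (-4.11 ± 1.70, 0.549), and neither DESeq2 nor limma-voom called any.

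**Figure D5:**
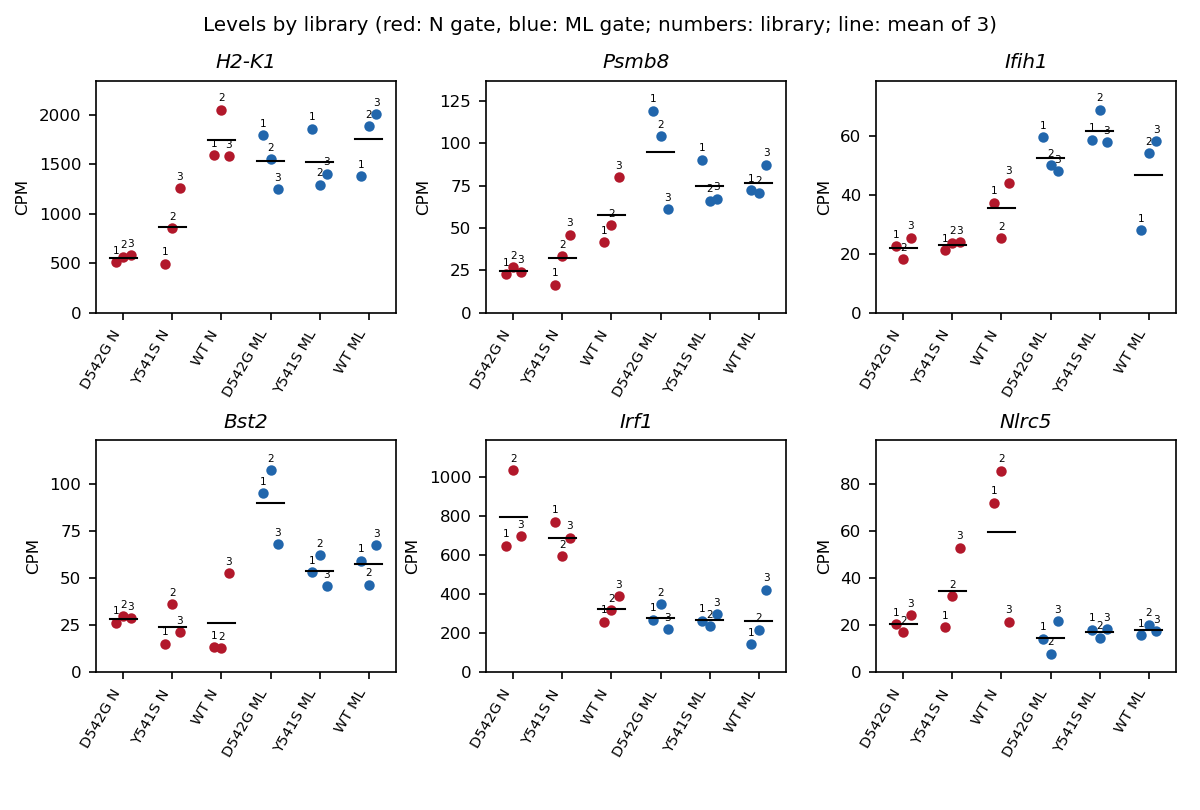
CPM of 6 genes in each library by group, N in red and ML in blue, with the mean of 3 libraries as a line. The D542G N points of H2-K1 run from 511 to 583 CPM and the WT N points from 1584 to 2052 CPM. Bst2 is at 52.5 CPM in WT N 3, against 12.7 and 13.4 CPM in the other WT N libraries.

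Within the N gate, 2 of 36 genes were lower in D542G than in WT (0.82% of all genes) and none was higher (1.61%). At an unadjusted p under 0.05, 8 were lower (9.45% of all genes) and 2 higher (9.0%). DESeq2 called 6 lower (4.6%) and 2 higher (4.77%), and limma-voom 7 lower (11.0%) and 5 higher (11.4%). H2-K1 averaged 554 ± 38.0 CPM in D542G N and 1742 ± 268 CPM in WT N (SD, n = 3 each), with no overlap (-1.65 ± 0.28 SE, adjusted p = 0.01), and lost its call without D542G N 1 or D542G N 3 (adjusted p up to 0.0657). H2-D1 averaged 1152 ± 95.6 CPM and 2804 ± 352 CPM in the same groups (-1.28 ± 0.29, adjusted p = 0.0383), and lost its call in 9 of the 18 fits with 1 library left out, among them those without any 1 of the D542G N libraries, WT N 1 or WT N 2 (up to 0.161). All 3 D542G N libraries lay below all 3 WT N libraries in 6 genes (11.0% of all genes) and above them in 2 (13.0%). The D542G N libraries had basal marker sums of 14769 to 16597 CPM, the WT N libraries 6223 to 39828 CPM. Their part in the difference was not tested. Without WT N 3, Nlrc5 was also lower (3 in all, with 2.8% of all genes lower then), and Gbp2, Irf9, Irf1 and Bst2 were higher (4, with 4.21% higher). Without Y541S N 3, Psmb9 and Psmb8 were also lower (4 in all), as many as without Y541S N 1. Without WT ML 1 or WT ML 3, 1 gene was higher. Shares of all genes are not given for the fits without Y541S N 3, Y541S N 1, WT ML 1 or WT ML 3. Their counts cannot be read as a change in the list alone.

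Y541S against WT in N gave no call by edgeR (0.115% of all genes were lower and 1.02% higher), with 7 lower (5.4%) and 6 higher (8.89%) at an unadjusted p under 0.05. DESeq2 called 1 lower (1.39% of all genes) and 2 higher (4.43%), and limma-voom 4 lower (3.72%) and 4 higher (6.84%). Gbp2 had 82.7, 55.8 and 61.7 CPM in Y541S N against 24.7, 33.9 and 42.5 CPM in WT N, with no overlap (0.99 ± 0.25, adjusted p = 0.0797). H2-K1 (-1.0 ± 0.28, 0.12) and Irf1 (1.09 ± 0.32, 0.136) followed. Without Y541S N 3 alone, Psmb9, H2-K1, Tap1 and H2-D1 were lower (4) and Ifit2 higher (1), and without WT N 3 Gbp2 was higher (2.25% of all genes then). The share of all genes without Y541S N 3 alone is not given here, so those counts cannot be set against it. All 3 Y541S N libraries lay below all 3 WT N libraries in 4 genes (5.87% of all genes) and above them in 4 (9.45%). These comparisons share the WT N libraries with those of D542G.

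Between the mutants, D542G against Y541S in N gave no call by edgeR (1.01% of all genes were lower and 0.421% higher), with 6 lower (8.4%) and 2 higher (5.93%) at an unadjusted p under 0.05. Ifit2 had 1.55, 1.76 and 5.14 CPM in D542G N against 12.8, 22.9 and 3.77 CPM in Y541S N, and the groups overlapped through D542G N 3 and Y541S N 3 (-2.22 ± 0.59, adjusted p = 0.0933). Usp18 had 22.9, 21.3 and 22.5 CPM in D542G N against 5.52, 5.20 and 12.9 CPM in Y541S N (1.5 ± 0.44, 0.121), and Ifit1 had 4.12 to 14.5 CPM against 20.8 to 44.2 CPM (-1.61 ± 0.55, 0.195). Ifit2 and Usp18 were called by DESeq2 (1 lower, 4.04% of all genes, and 1 higher, 2.19%), and limma-voom called Ifit1 besides (2 lower, 4.26%, and 1 higher, 2.41%). Both Ifit2 and Usp18 were also called without Y541S N 3.

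Within the ML gate no genotype difference was called for the 36 by edgeR, DESeq2 or limma-voom, and edgeR called none of all genes (0.0%). At an unadjusted p under 0.05, 2 genes were higher in D542G than in WT (2.93% of all genes) and none lower (3.24%), and none was higher (3.33%) or lower (2.19%) in Y541S. Usp18 had 33.4, 33.7 and 16.8 CPM in D542G ML against 11.1, 11.6 and 15.4 CPM in WT ML (1.14 ± 0.44, adjusted p = 0.808), Oas2 1.27 to 8.62 CPM against 0.564 to 0.913 CPM (2.68 ± 1.15, 0.808), and Tap2 217 to 357 CPM against 143.7 to 256.5 CPM (0.58 ± 0.28, 0.811). For Y541S against WT the smallest p values were those of Gbp2 (0.44 ± 0.25, 0.865), Tap2 (0.48 ± 0.28, 0.865) and Stat2 (-0.81 ± 0.48, 0.865). In 4 genes all 3 D542G ML libraries lay above all 3 WT ML libraries (5.63% of all genes) and in none below (4.73%), and for Y541S no gene was without overlap (7.04% of all genes above and 5.58% below). A test that misses the threshold does not show that the genotypes are alike.

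Other genes of the pathway moved in both directions between the gates over genotypes, where 13.8% of all genes tested were higher and 13.6% lower. No interferon ligand could be tested, since 4 of the 12 listed had any count and none passed the filter. Ifnk, Ifnl2 and Ifnl3 were listed at 0 with exons wholly within the span of another gene, so their zeros cannot be read as absent expression. Of 6 receptor genes, Ifngr1 (1.01 ± 0.25, adjusted p = 0.01), a chain of the interferon gamma receptor, was higher in N, with 77.8, 151.4 and 516 CPM in N against 55.0, 92.3 and 128.8 CPM in ML. Ifnar1 (0.48 ± 0.17, 0.0419, a call lost in 12 of the 18 fits with 1 library left out) was higher and Ifnar2 (-0.61 ± 0.16, 0.012) lower, and both encode chains of the type I receptor. In Ifnar2, 73.6% of the exon bases overlap the span of another gene, so its counts may come from part of the gene. Of 10 genes of JAK-STAT signalling and its inhibitors, 3 were higher and 2, not named here, were lower. The higher ones were inhibitors: Socs1, which blocks JAK kinases, had 28.0, 41.9 and 167.7 CPM in N against 10.7, 13.5 and 23.3 CPM in ML, so the gates did not overlap (2.07 ± 0.17, adjusted p = 2.81e-06; 1.48% of all genes had all N above all ML libraries). Socs3 (0.91 ± 0.21, 0.0055) and the phosphatase Ptpn2 (0.36 ± 0.11, 0.0261, lost without D542G ML 1, D542G N 2 or WT N 1) were higher too.

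Of 11 sensing genes tested, 3 were higher and 1 lower in N. Irf5, an interferon regulatory factor, was higher (2.14 ± 0.35, adjusted p = 0.00069), as were the kinases Tbk1 (0.45 ± 0.12, 0.0101) and Ikbke (1.14 ± 0.36, 0.031, but 0.0755 with pairing), and Zbp1, a sensor of Z-form nucleic acid, was lower (-1.70 ± 0.44, 0.0128). Of 47 further interferon-stimulated genes, 16 were lower and 3 higher, and their median log2 fold change was -0.60. Trim30a fell to 3.26, 4.15 and 10.5 CPM in N, against 15.9, 17.7 and 28.5 CPM in ML (-2.09 ± 0.22, adjusted p = 1.89e-05), again with no overlap (1.28% of all genes had all N below all ML libraries). Phf11d (-1.71 ± 0.18, 1.62e-05) and Parp9 (-0.98 ± 0.17, 0.000774) were lower, and Ifitm3, a membrane protein that blocks viral fusion, was higher (1.36 ± 0.16, 5.09e-05). In Parp9, 45.3% of the exon bases overlap the span of other genes, so its counts may come from part of the gene. Of 6 GTPase genes tested, Irgm1 was higher (1.22 ± 0.15, 7.45e-05) and Iigp1 lower (-1.51 ± 0.41, 0.0151).

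Of 13 other class I genes, 3 were lower and none higher. Psme1, a proteasome activator subunit, had 103.6, 138.3 and 177.6 CPM in N against 157.1, 184.4 and 246.1 CPM in ML (-0.54 ± 0.11, adjusted p = 0.00184). Its partner Psme2 was lower (-0.42 ± 0.14, 0.0374, but 0.0707 with pairing and lost in 12 of the 18 fits with 1 library left out), as was the non-classical heavy chain H2-Q6 (-0.89 ± 0.27, 0.0265, lost without WT ML 2, D542G ML 1, D542G N 1 or WT N 1). Of 8 class II genes 1 was lower, the peptide-editing chain H2-DMa (-1.32 ± 0.35, 0.0129), and Cd74, the invariant chain, was not called (-0.63 ± 0.47, 0.354).

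In the N gate some of these pathway genes also differed by genotype. Ifitm3 averaged 834 CPM in D542G N and 232 CPM in WT N (1.85 ± 0.28, adjusted p = 0.00629), Irgm1 264 and 80.7 CPM (1.71 ± 0.27, 0.00629), and H2-Q6 22.5 and 137.5 CPM (-2.61 ± 0.47, 0.0167; lost without D542G N 1, D542G N 3 or WT N 2). Socs1 averaged 146 CPM in Y541S N and 33.4 CPM in WT N (2.13 ± 0.29, adjusted p = 0.0048), and it was lower in D542G N, at 44.8 CPM, than in Y541S N (-1.70 ± 0.29, 0.0102; lost without D542G N 1 or D542G N 2). Irgm1 was higher in Y541S N as well (1.29 ± 0.27, 0.0336), a call lost in 8 of the 18 fits with 1 library left out.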

How the data were processed

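RNA of sorted mouse mammary cells was sequenced from libraries made with a transposase-based kit, per the labels' protocols. The values used are the whole-number read counts per gene that the authors deposited for each of 18 libraries (build GRCm38 according to the submitters' processing notes); neither the aligner nor the counter nor its strand setting is given in the sources used here. Symbols and coordinates came from GENCODE M21, which matched 52489 of 52636 identifiers, and promoters from RefSeq. A kit that cuts cDNA does not mark strand, so sense and antisense reads cannot be told apart. The deposited RPKM values divide by widths that for most genes equal the whole gene span, introns included, and were not used.

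Tests ran in edgeR 4.0.16 under R 4.3.3: filterByExpr (minimum count 10, minimum total 15) left 18298 genes, TMM factors ran from 0.85 to 1.1, and 1 quasi-likelihood model with 6 group means had 12 residual degrees of freedom and a biological coefficient of variation of 0.652. P-values were Benjamini-Hochberg adjusted over all genes tested within each comparison. CPM values use totals times TMM factors. The fit was first tested on simulated counts. Comparisons were N against ML over and within genotypes, genotypes within each gate, and the interactions. Comparisons that use the same WT libraries share their error. The labels call the 3 libraries of a group biological replicates.

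Alternatives were RLE and upper-quartile factors, DESeq2 1.42.0, limma-voom (limma 3.58.1) with quality weights, no filter, at least 1 CPM in 3 libraries, a replicate block, only the groups compared, each library left out, and both WT N 3 and Y541S N 3 left out. Within a genotype, deviations from the group means correlated at 0.166 to 0.553 between N and ML libraries of equal number, in all 9 pairs (10000 genes). Between other numbers they correlated at -0.455 to 0.192. The replicate block therefore took the numbers to pair the gates. The main fit used unpaired group means, and the labels do not state the pairing. Across genotypes same-numbered libraries correlated at -0.543 to 0.298 and were not taken as pairs. No 2 libraries of a group agreed within counting noise (chi-square per degree of freedom at least 46.1).

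All 36 genes are named over genotypes; elsewhere the called genes, at most the 8 with the smallest p, or else the 3 with the smallest p, are named, with up to 4 genes of each pathway list and promoters of up to 6 genes with the paired motif. The genes and lists were chosen with earlier results of these data known.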

Additional observations from a re-analysis of the deposited data

How the results depend on the processing

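Counts of the 36 genes called over genotypes stayed within 1.5 times in all alternatives (16 to 25 lower and 2 to 2 higher with 1 library left out); the median log2 fold change of all genes was -0.029, and -0.012 with RLE and -0.048 with upper-quartile factors. With 1 library left out, lower and higher counts ran from 4 to 12 and 0 to 1 in D542G, 1 to 8 and 0 to 1 in Y541S, and 0 to 12 and 0 to 1 in WT. In N they ran from 0 to 4 and 0 to 4 for D542G against WT, 0 to 4 and 0 to 1 for Y541S against WT, and 0 to 1 and 0 to 1 between the mutants. They were 0 in ML and for the interactions. The share of all genes called moved between such fits too. In D542G the lower share was 4.49% with all libraries and 6.87% without WT N 3. These ranges therefore do not show a change in the list alone. The replicate block, which pairs gates by number, gave 5 lower in Y541S (3.74% of all genes) and 4 lower in WT (2.14%). As a block over numbers it gave 1 lower for D542G against WT in N (0.514%), where H2-D1 had an adjusted p of 0.0621. DESeq2 gave 15 lower in D542G (8.86% of all genes), 5 in Y541S (5.73%), and 1 lower and 1 higher in WT (4.67% and 6.61%). In N it gave 6 lower and 2 higher for D542G against WT (4.6% and 4.77%). For Y541S against WT it gave 1 and 2 (1.39% and 4.43%), and between the mutants 1 and 1 (4.04% and 2.19%). For the D542G interaction it gave 2 lower (0.853%). Limma-voom gave 18 lower in D542G (16.8% of all genes), 13 in Y541S (6.11%), and 20 lower and 2 higher in WT (13.9% and 14.3%). In N it gave 7 lower and 5 higher for D542G against WT (11.0% and 11.4%). For Y541S against WT it gave 4 and 4 (3.72% and 6.84%), and between the mutants 2 and 1 (4.26% and 2.41%). For the D542G interaction it gave 4 lower and 2 higher (2.83% and 4.02%). Fitting only the groups compared gave 15 lower in D542G (11.0% of all genes then) and 1 in Y541S (2.19%). It gave 1 lower for D542G against WT in N (0.126%) and 1 lower between the mutants (2.73%). At least 1 CPM in 3 libraries gave 1 higher in WT and 1 higher for D542G against WT in N, RLE and upper-quartile factors 1 higher each there, and no filter 1 lower there. Over all genes, at least 1 CPM in 3 libraries gave 464 of 15114 higher in WT and 351 of 15114 higher for D542G against WT in N. There RLE factors gave 298 of 18298 higher, upper-quartile factors 309 of 18298 higher, and no filter 81 of 27504 lower. Without both WT N 3 and Y541S N 3, 14, 6 and 11 were lower in D542G, Y541S and WT (7.89%, 4.36% and 8.92% of all genes then). In WT 2 were higher (8.51%). In N, D542G against WT gave 5 lower and 6 higher (4.36% and 5.3%), and Y541S against WT 6 lower and 4 higher (4.34% and 5.65%). Between the mutants it was 1 and 1 (1.86% and 1.1%). The interactions gave 2 lower for D542G (0.79%) and 1 lower for Y541S (2.03%). Of 1916 repeats over 71 single results, 1768 kept direction and side of the threshold, 84 lost and 61 gained a call, and 3 reversed: Mx1 over genotypes (-3.32 to 0.66 with 1 library left out, positive without WT ML 2) and Mx2 (-0.73 by limma-voom; -0.17 to 1.34 with 1 left out, negative without Y541S N 2). The cause of these changes was not tested. Over all genes, WT had 254 lower and 392 higher calls, against 855 and 1209 by DESeq2 and 2548 and 2619 by limma-voom. With 3 libraries a group and a coefficient of variation of 0.652, and with Mx1, Mx2 and Oas2 under 10 counts in some libraries, differences of moderate size may be missed.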
